A study of Homo sapiens with 8 samples.

Results

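The genes described here are 41 components of the endoplasmic reticulum folding machinery and of the unfolded protein response, out of 78691 genes in the count table. They were chosen by name, with earlier results of these data known, so their counts beside those of all genes are descriptions and no independent test. They include 13 chaperones and related luminal proteins, 6 disulfide isomerases, and 6 stress sensors and transcription factors. The others are 11 proteins that recognise or export misfolded proteins for degradation, and 5 proteins of translocation into or transport out of the endoplasmic reticulum. All 41 names were found in the count table. Secreted and membrane proteins fold in the endoplasmic reticulum with the help of BiP and other chaperones. When unfolded proteins accumulate there, the membrane sensors IRE1, ATF6 and PERK signal to the nucleus, where the transcription factors XBP1, ATF6 and ATF4 raise the expression of chaperones, of degradation factors and of stress genes. Secretory tumor cells, prostate adenocarcinoma and neuroendocrine carcinoma among them, carry a large load of such proteins.

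The study asked how MYCL, a MYC family transcription factor, acts in 2 prostate cancer lines. C4-2B is a castration-resistant adenocarcinoma line, and its cells were transduced with an empty lentivirus (control) or with one that drives human MYCL, linked to EGFP, from the strong EF1A promoter. NCI-H660 is a neuroendocrine prostate cancer line, and its cells carried a non-targeting shRNA (shCtrl) or shRNA against MYCL (shMYCL). There were 2 libraries in each of the 4 groups, all from poly(A)-selected RNA and paired-end reads. C4-2B was thus studied with MYCL far above its own level and NCI-H660 with its own MYCL reduced, in different vectors and media, so that the line, the vector and the direction of the change cannot be told apart. The series' design text names an adenoviral vector for the knockdown, whereas the treatment labels describe stable knockdown. Only the C4-2B control libraries are labelled as biological replicates, so p-values here measure the spread between these libraries, which may be technical in the other groups.

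Libraries held between 15177071 and 32344170 counts. MYCL had 11.4 and 13.4 CPM (counts scaled by library size and normalized by TMM within each line) in C4-2B control cells and 3554 and 4018 after overexpression, and 109.9 and 86.7 in the shCtrl and 10.9 and 12.7 in the shMYCL libraries, which fits the labels of all 8 libraries. The 5 luminal adenocarcinoma markers reported (KLK3, KLK2, FOLH1, TMPRSS2 and HOXB13) all reached 1 TPM (counts scaled by gene length and library) in each C4-2B library, against 0 or 1 of 5 in NCI-H660 libraries. The 6 neuroendocrine markers reported (INSM1, CHGA, SYP, NCAM1, SOX2 and DLL3) all reached it in each NCI-H660 library, against 1 or 2 of 6 in C4-2B libraries. Each line's own markers also differed between its groups. The luminal markers summed to 1941 and 1949 TPM in C4-2B control and 1416 and 1309 in MYCL libraries. The neuroendocrine markers summed to 383.5 and 378.6 TPM in shCtrl and 301.7 and 333.5 in shMYCL libraries. In C4-2B the neuroendocrine sums were 6.956 and 6.826 TPM in control and 6.997 and 7.324 in MYCL libraries. In NCI-H660 the luminal sums were 1.093 and 1.142 TPM in shCtrl and 0.1125 and 0.6088 in shMYCL libraries. The part of these marker differences in the results below was not tested. In these bulk samples, fewer cells of a kind and less RNA per cell cannot be told apart.

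Classic promoter elements of this pathway, bound by ATF6 and XBP1, were looked for in the RefSeq promoter windows (250 bases before to 50 after a start site, GRCh38.p14), since they are letters that some members share and others lack. The first is the endoplasmic reticulum stress response element, read as CCAAT and CCACG separated by 9 bases, and the second is element II, read as ATTGG and CCACG separated by 1 base. Both strands were searched. Only exact copies of the fixed letters were taken, so copies that differ by a letter were neither counted nor put in capitals below. Windows were matched for 37 members. The first element was found in 7 of them (18.9%), CALR, CANX, CRELD2, HSP90B1, HSPA5, PDIA6 and XBP1, against 25 of 27305 genes in the table (0.0916%). Element II was found in 3 (8.11%), HERPUD1, HYOU1 and SDF2L1, against 19 genes (0.0696%). The unfolded protein response element, TGACGTGG, was found in HYOU1, SSR3 and TXNDC5 (8.11%, against 0.927% of genes), and in HYOU1 it overlaps a copy of element II. All 3 elements were chosen because they are known from this pathway. Their larger shares among members are therefore descriptions and no independent test. The copies in members discussed below are given first, each in the orientation of the element, with its fixed letters in capitals.
HSPA5, chr9:125241391-125241409: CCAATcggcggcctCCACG
XBP1, chr22:28800603-28800621: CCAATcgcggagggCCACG
HSP90B1, chr12:103930216-103930234: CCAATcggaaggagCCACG
HSP90B1, chr12:103930321-103930339: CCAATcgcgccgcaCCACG
CALR, chr19:12938384-12938402: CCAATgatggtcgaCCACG
HERPUD1, chr16:56932025-56932035: ATTGGgCCACG
SDF2L1, chr22:21642114-21642124: ATTGGtCCACG
HYOU1, chr11:119057274-119057284: ATTGGaCCACG
HYOU1, chr11:119057380-119057390: ATTGGaCCACG
The copies of HSPA5, XBP1 and HERPUD1 and the first of HSP90B1 read in the direction of the gene, and those of CALR, SDF2L1 and HYOU1 and the second of HSP90B1 read against it.

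The promoters of HSPA5 and HERPUD1, a chaperone and a degradation factor with large changes in both lines, are shown from 5′ to 3′ on the strand of the gene, up to the base before the annotated gene, with the element in capitals. That of HSPA5 is read from the minus strand and that of HERPUD1 from the plus strand.
HSPA5, chr9:125241383-125241593: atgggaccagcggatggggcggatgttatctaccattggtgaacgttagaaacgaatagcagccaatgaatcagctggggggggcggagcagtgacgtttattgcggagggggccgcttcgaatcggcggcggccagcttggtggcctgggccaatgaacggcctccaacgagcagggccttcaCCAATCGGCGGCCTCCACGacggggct
HERPUD1, chr16:56931892-56932141: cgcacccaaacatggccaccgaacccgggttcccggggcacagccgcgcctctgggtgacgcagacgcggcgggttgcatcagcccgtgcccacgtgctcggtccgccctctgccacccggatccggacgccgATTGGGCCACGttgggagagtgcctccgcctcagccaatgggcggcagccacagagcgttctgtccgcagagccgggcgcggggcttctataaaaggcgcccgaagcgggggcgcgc

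Summed over the 41 members, endoplasmic reticulum transcripts were higher in MYCL-overexpressing C4-2B cells and lower in MYCL-depleted NCI-H660 cells. Members took 1.311% and 1.305% of all counts in the C4-2B control libraries, 1.687% and 2.257% in the MYCL libraries, 1.061% and 1.131% in the shCtrl libraries and 0.8495% and 0.9335% in the shMYCL libraries, and neither line's groups overlap. On the per-length TPM scale the sum of the group means was 7678 in C4-2B control and 10402 in MYCL-overexpressing cells, and HSPA5 alone, which encodes the chaperone BiP, made up 55.9% of that difference. Without HSPA5 the sums were 6955 and 8157 TPM. In NCI-H660 cells the sum was 8051 TPM in shCtrl and 6796 in shMYCL, and HSPA5 made up 22.8% of the difference. By TPM, the highest member in C4-2B control cells was CALR, at 1354 ± 36.0 (SD, n = 2), followed by HSP90B1 at 854.1 ± 25.5 and HSPA5 at 723.5 ± 9.19. HSPA5 was first in MYCL-overexpressing cells, at 2245 ± 617 TPM (SD, n = 2), above CALR at 1472 ± 200. In NCI-H660 shCtrl cells CALR, at 1207 ± 87.0 TPM, and HSP90B1, at 1196 ± 49.8, did not differ beyond their spread, CANX was below both in each library at 1063 ± 63.4, and HSPA5 followed at 736.6 ± 40.6 (SD, n = 2 each). The lowest member in all 4 groups was CREB3L1, at 0.0699 to 0.529 TPM.

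Of the 41 members, 22 were called higher and 0 lower in C4-2B cells with MYCL, and 12 of 40 tested were called lower and 0 higher in NCI-H660 cells with MYCL depleted. Calls needed an adjusted p under 0.05 in the quasi-likelihood test of edgeR (Benjamini-Hochberg, over all genes tested) and a log2 fold change of 0.5 or more in size. Over all genes, 11.8% were called higher and 8.12% lower in C4-2B, and 7.18% higher and 8.99% lower in NCI-H660. At an unadjusted p under 0.05, 27 members were higher and 0 lower in C4-2B, and 2 were higher and 21 lower in NCI-H660. DESeq2 called 18 higher and 0 lower in C4-2B, and 0 higher and 10 lower in NCI-H660. Members had a median log2 fold change of 0.54 in C4-2B against −0.31 in NCI-H660, and that of all genes tested was −0.0017 and −0.0029. Both MYCL libraries lay above both control libraries for 30 members in C4-2B, as they did for 34.5% of all genes tested. Both shMYCL libraries lay below both shCtrl libraries for 25 members in NCI-H660, against 32.0% of all genes tested. For 3 members that were not called, TXNDC5, CREB3 and DERL1, both shMYCL libraries lay above both shCtrl libraries. CREB3L1, with 0 to 4 counts in each NCI-H660 library, was not tested there.

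The C4-2B counts leaned on 1 library. Replicate 2 of MYCL-overexpressing cells was above replicate 1 for 40 of the 41 members, by a median of 0.379 on the log2 scale and by up to 1.02, while the control libraries differed by a median of −0.0136. Without MYCL replicate 2, 12 members were called higher, with a median log2 fold change of 0.30, and ATF6, CREB3L1, CRELD2, DERL3, ERP44, HSP90B1, HYOU1, SDF2L1, SEC24D and WFS1 were no longer called. Without MYCL replicate 1, 26 were called. The 12 members called whichever C4-2B library was left out were HSPA5, DNAJB9, DNAJC3, MANF, CRELD1, PDIA4, ERN1, HERPUD1, SEL1L, SYVN1, EDEM1 and EDEM2. In NCI-H660 the members called whichever library was left out were 5, namely HSPA5, PDIA4, CREB3L2, HERPUD1 and EDEM1. The count was also smaller in the TPM alternative, which changes the scale, the test and the filter together: with limma on log2(TPM + 1), 11 were called higher in C4-2B, where the median of all genes shifted by −0.142, and 33.5% of all called genes were higher instead of 59.2% from counts.

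**Figure D1:**
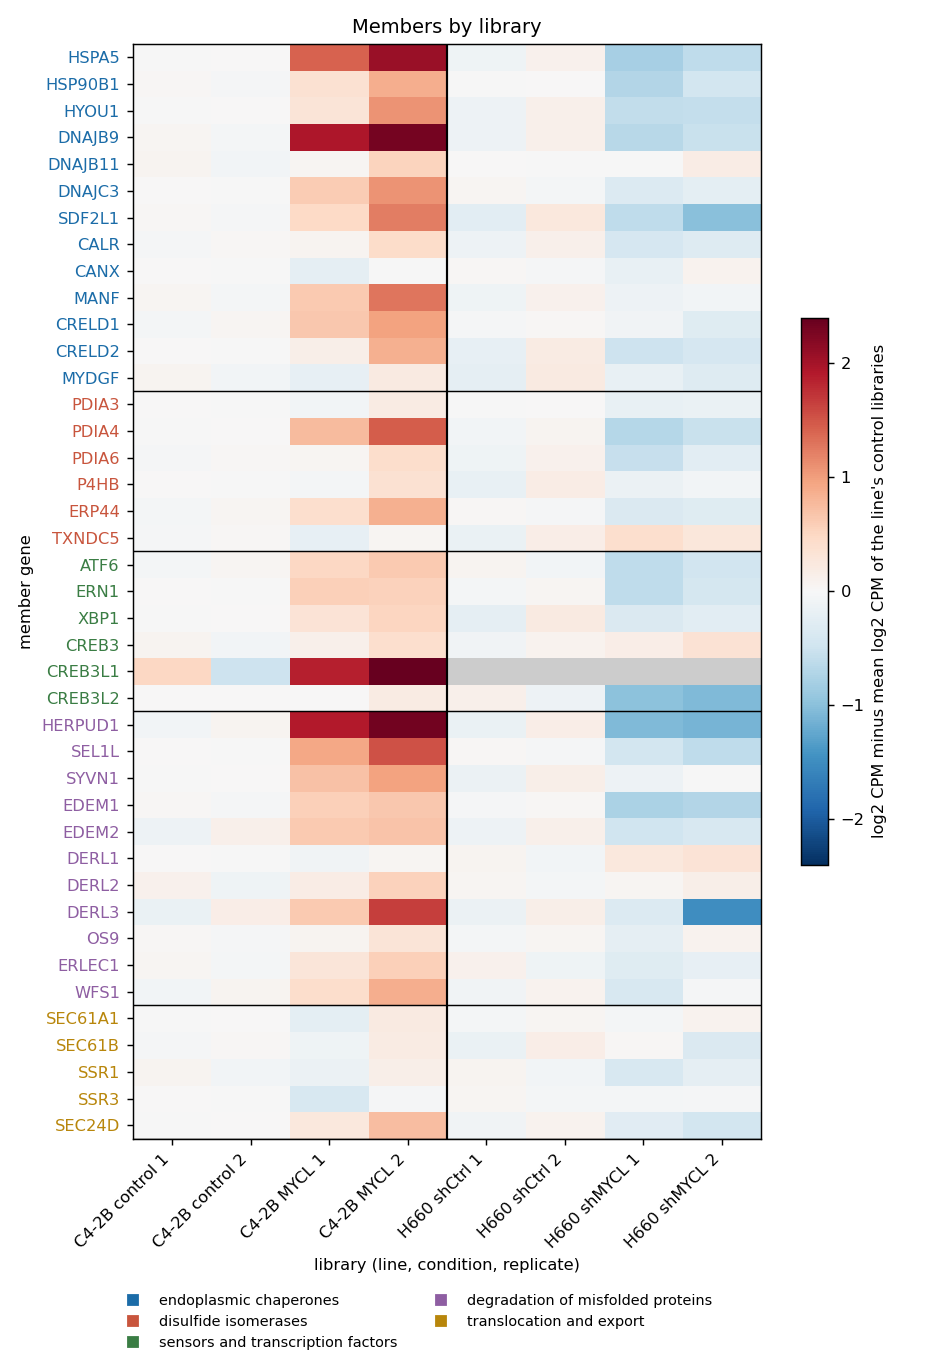
Heatmap of the 41 members (rows, coloured by role) in the 8 libraries (columns). Colour is log2 CPM minus the mean log2 CPM of the control libraries of the same line, red for higher and blue for lower, and grey marks CREB3L1 in NCI-H660, which was not tested. MYCL replicate 2 of C4-2B has the higher value of the MYCL libraries for 40 of 41 members, and the shMYCL libraries are mostly blue.

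Of the chaperones, 9 of 13 were called higher in C4-2B and 5 of 13 lower in NCI-H660, all 5 of them among the 9. HSPA5 (ENSG00000044574.10, chromosome 9, 125234853 to 125241382, minus strand, GRCh38) encodes BiP, the Hsp70 of the endoplasmic reticulum and the sensor-binding chaperone of the stress response. It had 1361 and 1362 CPM in C4-2B control cells and 3633 and 5750 with MYCL. It had 945.8 and 1087 CPM in the shCtrl libraries and 586.4 and 663.9 in the shMYCL libraries. Neither line's groups overlapped, and the MYCL libraries were the most spread. The log2 fold change was 1.78 ± 0.173 (SE, edgeR adjusted p = 0.000155) in C4-2B and −0.70 ± 0.112 (SE, edgeR adjusted p = 0.000369) in NCI-H660.

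DNAJB9 (ENSG00000128590.6, chromosome 7), a J-domain partner of BiP also known as ERdj4, had, with HERPUD1 and CREB3L1, the largest change among members in C4-2B. It had 33.9 and 31.6 CPM in control cells and 126.2 and 159.9 with MYCL, a log2 fold change of 2.12 ± 0.116 (SE, edgeR adjusted p = 1.11e-05). In NCI-H660 it was 14.6 and 17.3 CPM in shCtrl and 10.0 and 11.0 in shMYCL libraries, and its log2 fold change of −0.60 ± 0.161 (SE, edgeR adjusted p = 0.0126) lost its call without shCtrl replicate 2 or without shMYCL replicate 1. All MYCL values stood above all control values in C4-2B and all shMYCL values below the shCtrl values in NCI-H660. SDF2L1 (ENSG00000128228.6, chromosome 22), a luminal partner of J-domain cochaperones, was at 27.0 and 26.1 CPM in control and 36.9 and 62.5 in MYCL libraries, a log2 fold change of 0.90 ± 0.199 (SE, edgeR adjusted p = 0.00777). In NCI-H660 its libraries held 116 and 180 counts in shCtrl and 81 and 64 in shMYCL, or 6.85 and 9.74 against 5.33 and 4.09 CPM, with a log2 fold change of −0.82 ± 0.241 (SE, edgeR adjusted p = 0.021). DESeq2 made neither call of SDF2L1, with adjusted p of 0.0526 and 0.0646.

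HSP90B1, the Hsp90 of the endoplasmic reticulum, had log2 fold changes of 0.64 and −0.57 in C4-2B and NCI-H660, and HYOU1, a nucleotide exchange factor for BiP, of 0.74 and −0.59, and both passed the edgeR test in both lines. DESeq2 did not call either in C4-2B, and in NCI-H660 HSP90B1 was lost without shMYCL replicate 1 and HYOU1 without shCtrl replicate 2. MANF (ENSG00000145050.19, chromosome 3), a secreted stress factor that binds BiP, passed only in C4-2B. Its level was 137.0 and 129.3 CPM in control and 205.8 and 322.2 in MYCL libraries, a log2 fold change of 0.99 ± 0.169 (SE, edgeR adjusted p = 0.00229). In NCI-H660 it was 76.9 and 88.5 CPM in shCtrl and 76.1 and 78.7 in shMYCL libraries, with a log2 fold change of −0.10 ± 0.109 (SE, edgeR adjusted p = 0.565). DNAJC3, the BiP cochaperone p58IPK (0.86), CRELD1 (0.81), whose exon bases overlap PRRT3 on the other strand by 41.5%, and CRELD2 (0.54) were called in C4-2B, with NCI-H660 values of −0.28, −0.18 and −0.46 that were not called. Called in neither line were the lectins CALR (0.27 and −0.36) and CANX (−0.10 and −0.04), the cochaperone DNAJB11 (0.31 and 0.09) and the secreted factor MYDGF (0.02 and −0.26). CALR thus had a change below the 0.5 threshold in both lines. By TPM it was the highest chaperone in C4-2B control cells and level with HSP90B1 in shCtrl cells.

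**Figure D2:**
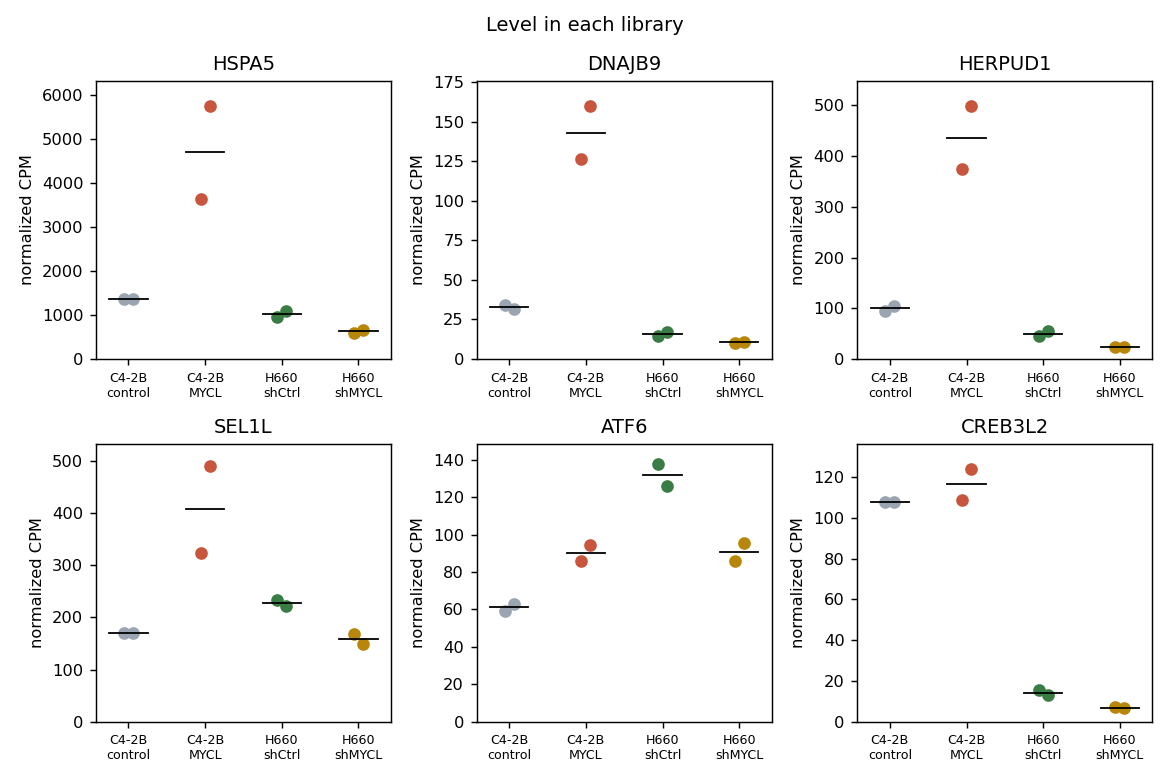
Normalized CPM (vertical axis, starting at 0, scaled within each line) in each library for HSPA5, DNAJB9, HERPUD1, SEL1L, ATF6 and CREB3L2, with 2 libraries per group and a bar at their mean. For HSPA5 the MYCL libraries sit at 3633 and 5750 CPM against 1361 and 1362 in control, while CREB3L2 sits between 107.6 and 124.0 CPM in all C4-2B libraries and drops from 15.4 and 12.9 to 7.11 and 6.77 in NCI-H660.

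Disulfide isomerases, which form and rearrange the disulfide bonds of secreted proteins, had 2 of 6 members called higher in C4-2B and 1 of 6 called lower in NCI-H660. PDIA4 (ENSG00000155660.12, chromosome 7), a multidomain isomerase, was at 530.9 and 532.5 CPM in the control and 896.3 and 1459 in the MYCL libraries, a log2 fold change of 1.15 ± 0.18 (SE, edgeR adjusted p = 0.00153). The NCI-H660 libraries had 169.6 and 185.4 CPM in shCtrl and 110.0 and 122.8 in shMYCL libraries, a log2 fold change of −0.61 ± 0.108 (SE, edgeR adjusted p = 0.000788). It was the isomerase called in both lines, and its groups did not overlap in either. ERP44, which retains proteins in the early secretory pathway, was called in C4-2B (0.64) and had −0.32 in NCI-H660. The abundant isomerases PDIA3 (0.07 and −0.18), PDIA6 (0.25 and −0.40) and P4HB (0.18 and −0.12) were called in neither line. TXNDC5 was not called either, but its NCI-H660 values went the other way, with 153.8 and 193.7 CPM in shCtrl and 227.8 and 207.7 in shMYCL libraries and a log2 fold change of 0.33 (adjusted p = 0.0569 from edgeR), which was called when shCtrl replicate 2 was left out. The readthrough gene BLOC1S5-TXNDC5 covers 61.1% of its exon bases, so counts could be split between the 2 names.

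Among the sensors and transcription factors, ATF6 and ERN1 were called in both lines by edgeR from counts, XBP1 in neither and CREB3L2 in NCI-H660. XBP1 (ENSG00000100219.18, chromosome 22) encodes the factor that IRE1 activates by splicing its mRNA. It had 194.0 and 198.9 CPM in C4-2B control and 246.2 and 282.0 in MYCL libraries, and 70.5 and 93.9 in shCtrl and 64.2 and 68.7 in shMYCL libraries, so the groups did not overlap in either line. Its log2 fold changes were 0.43 ± 0.0818 (SE, edgeR adjusted p = 0.00399), under the 0.5 threshold, and −0.31 ± 0.128 (SE, edgeR adjusted p = 0.092). Gene-level counts do not separate its spliced from its unspliced mRNA. ERN1 (ENSG00000178607.17, chromosome 17), which encodes the sensor IRE1α, was at 39.4 and 38.8 CPM in control and 58.2 and 57.1 in MYCL libraries, a log2 fold change of 0.56 ± 0.0777 (SE, edgeR adjusted p = 0.000828). In NCI-H660 it was at 16.7 and 17.7 CPM in shCtrl and 11.3 and 12.8 in shMYCL libraries, a log2 fold change of −0.51 ± 0.151 (SE, edgeR adjusted p = 0.0212). DESeq2 did not make the NCI-H660 call of ERN1 (adjusted p = 0.0813 from DESeq2). Without shCtrl replicate 2 that log2 fold change was −0.47, and without shMYCL replicate 1 it was −0.41, both under the threshold in size. Both calls of ERN1 were lost on log2(TPM + 1), where limma gave adjusted p of 0.0509 and 0.149.

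ATF6 (ENSG00000118217.8, chromosome 1, 161766298 to 161977574, plus strand), the sensor that is cleaved in the Golgi to release a transcription factor, gave different answers from counts and from TPM. From counts it was at 59.2 and 63.0 CPM in C4-2B control and 85.9 and 94.4 in MYCL libraries, a log2 fold change of 0.56 ± 0.0815 (SE, edgeR adjusted p = 0.00103). The NCI-H660 libraries had 137.5 and 126.1 CPM in shCtrl and 86.1 and 95.3 in shMYCL libraries, a log2 fold change of −0.54 ± 0.107 (SE, edgeR adjusted p = 0.00192). On the TPM scale its mean was 24.6 in control and 24.7 in MYCL libraries, with a log2(TPM + 1) difference of 0.0042 (adjusted p = 0.975 from limma), and 52.3 in shCtrl against 46.5 in shMYCL libraries, with a difference of −0.16 (adjusted p = 0.505 from limma). The ratio of its counts to its TPM moved by 0.411 on the log2 scale in C4-2B, the 99.8th percentile of 10448 genes, and by −0.357 in NCI-H660, the 0.44th percentile. The gene length implied by the deposited counts and TPM of ATF6 thus differed between the groups, for a cause that was not tested, and a change in its level per length was not detected.

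CREB3L2 (ENSG00000182158.17, chromosome 7), a membrane-bound factor of the secretory pathway related to ATF6, was the member that passed in NCI-H660 without passing in C4-2B. It had 107.6 and 107.6 CPM in C4-2B control cells against 108.8 and 124.0 with MYCL, a log2 fold change of 0.11 ± 0.0818 (SE, edgeR adjusted p = 0.319). In NCI-H660 it had 15.4 and 12.9 CPM in shCtrl and 7.11 and 6.77 in shMYCL libraries, a log2 fold change of −1.03 ± 0.178 (SE, edgeR adjusted p = 0.000676), larger in size than that of any other member but HERPUD1. With limma it was called on log2(TPM + 1) (adjusted p = 0.0479) but not on log2(TPM + 0.1) or without the TPM filter (adjusted p = 0.182). Its relative CREB3L1 (ENSG00000157613.12, chromosome 11) rested on few counts, 11 and 4 in C4-2B control against 16 and 25 with MYCL, for a log2 fold change of 2.12 ± 0.584 (SE, edgeR adjusted p = 0.0213) that was no longer called without MYCL replicate 2, without control replicate 2 (adjusted p = 0.132 from edgeR) or in the fit of all 4 groups (adjusted p = 0.0504 from edgeR). The third relative, CREB3, had 0.26 and 0.25 and was called in neither line.

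The degradation machinery, which returns misfolded proteins to the cytosol, had 7 of 11 members called higher in C4-2B and 3 of 11 lower in NCI-H660. HERPUD1 (ENSG00000051108.16, chromosome 16, 56932142 to 56944864, plus strand), a membrane scaffold of the degradation complex, had the largest change of any member in NCI-H660. Its level was 95.2 and 105.3 CPM in C4-2B control and 374.5 and 497.9 in MYCL libraries, a log2 fold change of 2.12 ± 0.129 (SE, edgeR adjusted p = 2e-05). In NCI-H660 it was 44.5 and 55.5 CPM in shCtrl and 24.0 and 23.1 in shMYCL libraries, a log2 fold change of −1.09 ± 0.133 (SE, edgeR adjusted p = 3.7e-05). The groups stood far apart in both lines, and both calls held whichever library was left out.

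SEL1L (ENSG00000071537.15, chromosome 14) and SYVN1 (ENSG00000162298.20, chromosome 11) encode the adaptor and the ubiquitin ligase of one complex, and both were called higher in C4-2B. SEL1L was at 170.9 and 169.3 CPM in control and 323.8 and 490.5 in MYCL libraries, a log2 fold change of 1.26 ± 0.159 (SE, edgeR adjusted p = 0.000522). SYVN1 was at 35.5 and 35.8 CPM in control and 58.4 and 69.4 in MYCL libraries, a log2 fold change of 0.84 ± 0.0974 (SE, edgeR adjusted p = 0.00034). In NCI-H660 only SEL1L was called, and the difference between the 2 partners was not tested. SEL1L was at 233.3 and 222.6 CPM in shCtrl and 168.4 and 149.9 in shMYCL libraries, a log2 fold change of −0.52 ± 0.106 (SE, edgeR adjusted p = 0.00228) that fell under the threshold without shCtrl replicate 1 and without shMYCL replicate 2. SYVN1 was at 25.8 and 31.0 CPM in shCtrl and 25.9 and 28.3 in shMYCL libraries, with a log2 fold change of −0.07 ± 0.133 (SE, edgeR adjusted p = 0.741).

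EDEM1 (ENSG00000134109.11, chromosome 3), which extracts glycoproteins for degradation after their mannose is trimmed, was at 103.1 and 98.8 CPM in control and 149.8 and 157.7 in MYCL libraries, a log2 fold change of 0.61 ± 0.0722 (SE, edgeR adjusted p = 0.000385). In NCI-H660 it was at 81.0 and 84.5 CPM in shCtrl and 49.2 and 51.0 in shMYCL libraries, a log2 fold change of −0.72 ± 0.107 (SE, edgeR adjusted p = 0.000184). Its replicates lay close together in all 4 groups, and neither line's groups overlapped. DERL3 (ENSG00000099958.16, chromosome 22), a channel protein of the same route, had 72 and 65 counts in control against 70 and 135 with MYCL, or 2.21 and 2.73 against 3.80 and 7.72 CPM, a log2 fold change of 1.22 ± 0.346 (SE, edgeR adjusted p = 0.0237). Without MYCL replicate 2 its log2 fold change was 0.62 and was not called, and 77.0% of its exon bases lie opposite SMARCB1, with the strand setting of the counting not stated. EDEM2 (0.66) and WFS1, a membrane protein of the endoplasmic reticulum (0.67), were also called higher in C4-2B, with −0.44 and −0.19 in NCI-H660 that were not called. The channel proteins DERL1 (−0.02 and 0.29) and DERL2 (0.37 and 0.10) and the lectins OS9 (0.19 and −0.07) and ERLEC1 (0.43 and −0.24) were called in neither line.

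Translocation and export components changed little. In C4-2B, 1 of 5 was called higher, SEC24D, a coat protein of the vesicles that leave the endoplasmic reticulum, with a log2 fold change of 0.52 (adjusted p = 0.0188 from edgeR) that was lost without MYCL replicate 2. In NCI-H660, 0 of 5 were called by edgeR or by DESeq2, and 2 had an unadjusted p under 0.05. These 2 had changes under the 0.5 threshold, SSR1 of −0.31 (adjusted p = 0.047 from edgeR) and SEC24D of −0.36 (adjusted p = 0.0483 from edgeR). The translocation channel subunits SEC61A1 and SEC61B had log2 fold changes of 0.0016 and 0.06 in C4-2B, and the translocon-associated SSR1 and SSR3 of −0.00072 and −0.19. SSR3 was the member whose MYCL libraries both lay below both controls, at 325.9 and 421.0 against 430.5 and 423.3 CPM, and it was not called.

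Of the 40 members tested in both lines, 21 were called higher in C4-2B, 12 were called lower in NCI-H660, and 11 were both. These 11 were HSPA5, HSP90B1, HYOU1, DNAJB9, SDF2L1, PDIA4, ATF6, ERN1, HERPUD1, SEL1L and EDEM1. They make up 52.4% of the 21 and 91.7% of the 12. Of the 11, DESeq2 did not call HSP90B1, HYOU1 or SDF2L1 in C4-2B, nor ERN1 or SDF2L1 in NCI-H660. With limma on log2(TPM + 1), ATF6 and ERN1 were called in neither line, and EDEM1, HSP90B1 and HYOU1 were not called in C4-2B. Over the 14212 genes tested in both lines, 1660 were called higher in C4-2B, 1136 lower in NCI-H660 and 256 both, or 15.4% of the former and 22.5% of the latter. The lines share no samples. The other 10 members called higher in C4-2B all had a log2 fold change below 0 in NCI-H660. No member was called in the same direction in both comparisons.

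**Figure D3:**
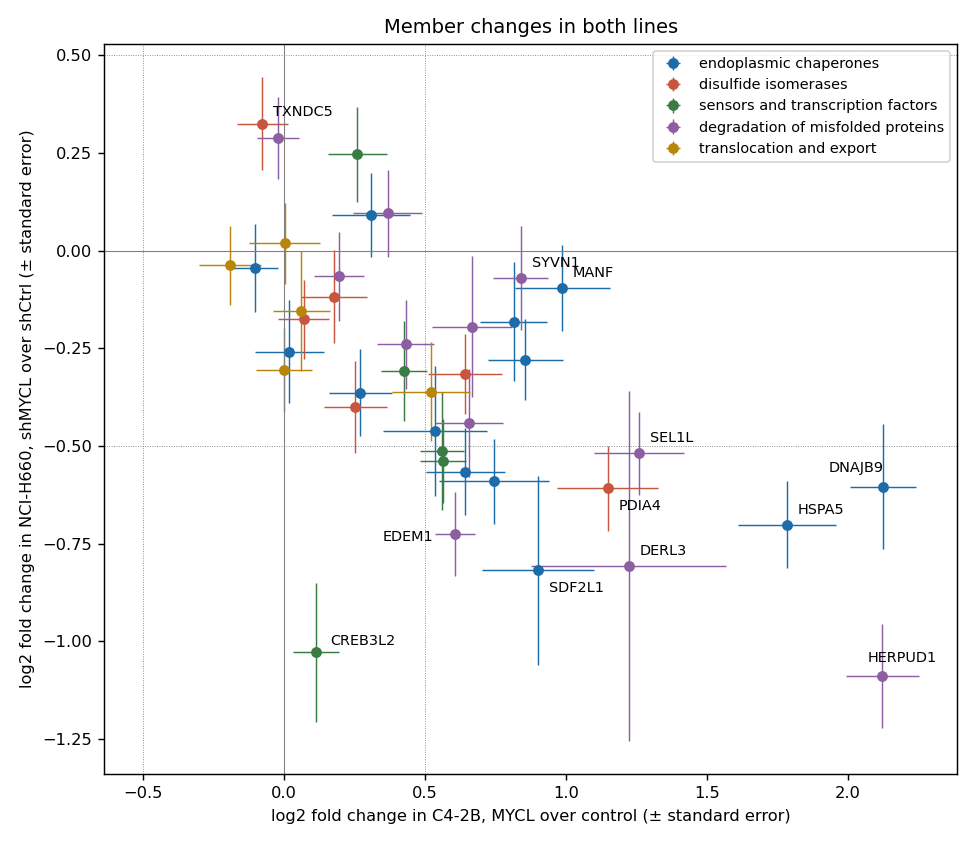
Log2 fold change of the 40 members tested in both lines, in C4-2B with MYCL over control (horizontal axis) and in NCI-H660 with shMYCL over shCtrl (vertical axis). Bars are standard errors, colours are roles and dotted lines mark the 0.5 threshold. HSPA5, HERPUD1 and DNAJB9 lie at the lower right, and CREB3L2 lies at 0.11 and −1.03.

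The size of the response to high against low MYCL was compared between the lines by an interaction term over the 4 groups, as the C4-2B log2 change minus the log2 change of shCtrl over shMYCL cells. This test called 17.9% of all genes tested, 1880 with a positive and 1633 with a negative difference. With a share near that of all genes, 9 of the 41 members were called. The difference was positive, with the larger change in C4-2B, for 8 of them: DNAJB9 at 1.52 ± 0.198 (SE, edgeR adjusted p = 0.000246), HSPA5 at 1.08 ± 0.227 (SE, edgeR adjusted p = 0.00514), HERPUD1 at 1.03 ± 0.199 (SE, edgeR adjusted p = 0.0032), MANF at 0.89, SYVN1 at 0.77, SEL1L at 0.74, CRELD1 at 0.63 and DNAJC3 at 0.57. It was negative for CREB3L2, at −0.92 ± 0.173 (SE, edgeR adjusted p = 0.00269). HSPA5, DNAJB9, CREB3L2, HERPUD1 and SYVN1 were called whichever library was left out. Without shCtrl replicate 1 these 5 alone remained, and without C4-2B MYCL replicate 1 there were 15. The amount of MYCL change was itself unequal, with a log2 fold change of 8.26 in C4-2B and −3.06 in NCI-H660, so these differences are not per unit of MYCL. For the 11 members called in both lines, the difference between lines was called for 4.

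Of the 7 members with the first promoter element, 3 were called higher in C4-2B and 2 lower in NCI-H660. All 3 with element II, HERPUD1, HYOU1 and SDF2L1, were called in both lines by edgeR, with median log2 fold changes of 0.90 and −0.82. DESeq2 did not call HYOU1 or SDF2L1 in C4-2B, nor SDF2L1 in NCI-H660. The shares of all genes called by edgeR were 11.8% higher in C4-2B and 8.99% lower in NCI-H660. Of the 25 members with no exact copy of an element in this window, 14 were called higher in C4-2B. In NCI-H660, 7 of the 24 tested among these members were called lower. DNAJB9 and SEL1L were among those called in both lines. CALR, CANX, PDIA6 and XBP1 carry the first element as HSPA5 does, and were called in neither line.

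The control groups of the lines also differed in these genes. In NCI-H660 shCtrl against C4-2B control cells, 4 members were called higher and 20 lower, where 36.5% and 33.3% of all genes were called higher and lower. The 4 were ATF6 (log2 difference 0.95), OS9 (0.76), EDEM2 (0.72) and CANX (0.59). The largest difference was that of CREB3L2, with a log2 difference of −3.09 (adjusted p = 2.21e-11 from edgeR), followed by SDF2L1 (−1.84), CRELD2 (−1.74), PDIA4 (−1.74), SEC61B (−1.65) and XBP1 (−1.42). By role, 7 of 13 chaperones, 4 of 6 isomerases and 4 of 5 translocation and export components were lower in NCI-H660, against 2 of 11 degradation factors. The line cannot be told apart here from its vector and medium.

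A further 110 genes of the same organelle and pathway were counted for comparison. The genes listed here as the PERK arm, from the kinase PERK through ATF4 to DDIT3 (CHOP) and its targets, behaved differently in the lines. PERK activity was not measured, and what drove these RNA levels was not tested. EIF2AK3, which encodes PERK, was called in neither line. Its log2 fold change was 0.46 in C4-2B (adjusted p = 0.00321 from edgeR), under the fold threshold, and 0.07 in NCI-H660. In C4-2B, 9 of the 12 genes of this list were called higher, with a median log2 fold change of 1.55. DDIT3, the stress factor CHOP, had 11.9 and 15.8 CPM in control and 221.4 and 260.3 in MYCL libraries, a log2 fold change of 4.13 ± 0.138 (SE, edgeR adjusted p = 1.51e-06), above that of any of the 41 members. ATF3, a stress-induced factor downstream of ATF4, had 15.4 and 17.6 against 123.9 and 111.3 CPM, a log2 fold change of 2.84 (adjusted p = 1.82e-06 from edgeR). In NCI-H660, 0 of the 12 were called by edgeR or by DESeq2, with a median of 0.0185, and 3 had an unadjusted p under 0.05. Of these 3, 2 were higher and 1 was lower with MYCL depleted. EIF2S1 was higher, with a log2 fold change of 0.43 (adjusted p = 0.00651 from edgeR) that was under the fold threshold. ATF4 was also higher, with 0.27 (adjusted p = 0.0818 from edgeR). The lower one was DDIT3, at 65.4 and 85.4 CPM in shCtrl and 62.4 and 60.4 in shMYCL libraries. Its log2 fold change was −0.30 (adjusted p = 0.095 from edgeR). The interaction was called for 10 of the 12, all with the larger change in C4-2B.

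The other lists had fewer calls. Of 26 folding and redox genes, 5 were called higher and 2 lower in C4-2B, led by ERO1B, an oxidase that recharges disulfide isomerases (1.81), and by the prolyl isomerase FKBP7 (−1.45). Of the 25 tested in NCI-H660, 1 was higher and 6 lower, the lower ones led by FKBP7 (−1.38) and FKBP14 (−1.13), so that FKBP7 was lower in both comparisons. Among 19 further degradation genes, 1 was higher (SELENOK, 0.66) and 2 lower (FOXRED2 the larger, −0.91) in C4-2B, and 1 higher (UFD1, 0.55) in NCI-H660. Among 27 translocation, signal peptidase and glycosylation genes, 2 were lower in C4-2B, SEC61A2 (−0.59) and SEC11C (−0.51), and 1 was higher in NCI-H660, SEC61A2 (0.56). Among 18 export genes, 2 were higher in C4-2B, ARFGAP3 (0.83) and MCFD2 (0.59), and TMED10 (−0.59) and SAR1A (0.50) were called in NCI-H660. Of 6 tested sensor and processing genes, BBC3, the apoptosis activator PUMA (1.71), was higher and 2 were lower in C4-2B, with CREB3L4 lower in both C4-2B (−0.78) and NCI-H660 (−0.52). Over the 6 lists with the PERK arm, 18 of 108 genes were called higher and 8 lower in C4-2B, 9 of the 18 in the PERK arm. In NCI-H660, 4 of 107 were higher and 8 lower. The shares of all genes called were 11.8% higher and 8.12% lower in C4-2B, and 7.18% higher and 8.99% lower in NCI-H660.

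**Figure D4:**
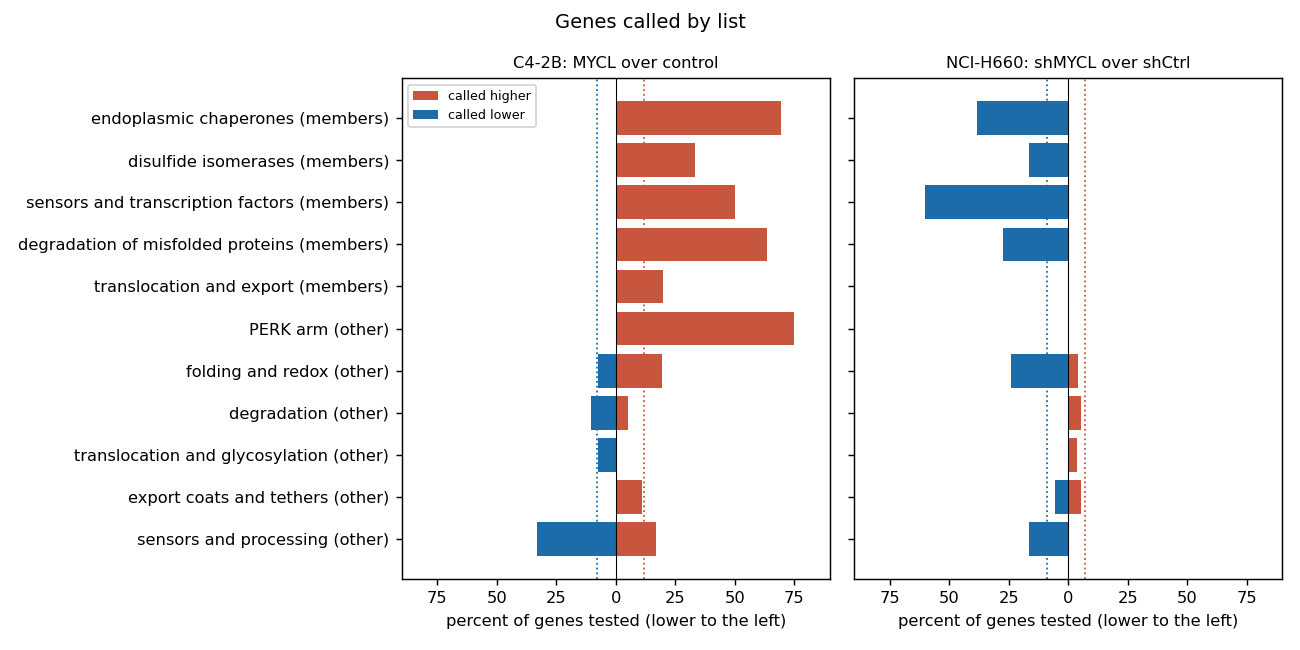
Percent of the genes tested in each list that were called higher (red, to the right) or lower (blue, to the left) in each line, for the 5 roles of the members and the 6 lists of other genes. Dotted lines mark the percent of all genes called, 11.8% and 8.12% in C4-2B and 7.18% and 8.99% in NCI-H660. The PERK arm reaches 9 of 12 in C4-2B and has no call in NCI-H660.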

How the data were processed

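The authors deposited per-gene read counts, not normalized, and TPM values that, by the study's methods, normalize those counts to gene length and then to a common sum. The ratio of counts to TPM did not shift equally for all genes between groups, so 1 fixed length per gene does not give the deposited TPM. On the log2 scale it shifted by 0.411 for ATF6 and 0.224 for MYCL in C4-2B. In NCI-H660 it shifted by −0.357 for ATF6, 0.251 for CREB3L2, −0.229 for SSR3 and −0.138 for SSR1. The other members looked at shifted by less in size in both lines. The deposited counts are estimated counts, since 22.4% of the nonzero values are not whole at a tolerance of 0.01, and they were rounded before any test. The submitters' processing notes name hg38, and the aligner, the counting tool and its strand setting are not given in the sources used here. The members and gene lists were chosen with earlier results of these data known.

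The lines were fitted separately in edgeR 4.0.16 (R 4.3.3), with the filterByExpr filter, TMM normalization and the quasi-likelihood test, and all p-values were Benjamini-Hochberg adjusted over all genes tested, 16866 in C4-2B and 16980 in NCI-H660. The interaction and the contrast of control lines came from a fit of all 4 groups (19605 genes). The biological coefficient of variation was 0.0829 and 0.0965. With 2 libraries against 2, an exact two-sided permutation test of 1 gene cannot go below p = 0.33. Libraries of a group differed by more than sampling noise. The scripts were tested on simulated data.

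Full statistics were given for HSPA5, XBP1, ATF6 and ERN1, the 6 largest called changes in each line and the 6 largest called interactions. Of each other list, the 2 largest called changes in each line were named. In the PERK arm, EIF2AK3 was also named, as the gene of PERK, and EIF2S1 and ATF4 for their unadjusted p in NCI-H660. Further genes of this list are counted only. The alternatives used DESeq2 1.42.0, other size factors (relative log expression), other filters and fold thresholds, a fit of all 4 groups, a replicate block, limma 3.58.1 on log2(TPM + 1) or log2(TPM + 0.1) (TPM of 1 or more in 2 libraries, or no such filter), and leaving out each library. Positions are from GENCODE 44 on GRCh38, which holds 61458 of the 78691 identifiers, and promoters are RefSeq windows. Python 3.11.15 with pandas 2.3.3 handled tables. Some marker genes are not reported here.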

Additional observations from a re-analysis of the deposited data

Results flagged for a closer look

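The change with high against low MYCL was compared between the lines by the interaction in edgeR's fit of all 4 groups. This test of the difference itself was called for 9 of 41 members, a share near the 17.9% called over all genes tested. As the C4-2B log2 change minus that of NCI-H660, the differences were 1.52 for DNAJB9, 1.08 for HSPA5, 1.03 for HERPUD1, 0.889 for MANF, 0.767 for SYVN1, 0.738 for SEL1L, 0.629 for CRELD1, 0.575 for DNAJC3 and −0.917 for CREB3L2. Line, vector, medium and size of the MYCL change differ together in this design and cannot be told apart. CRELD1 and DNAJC3 lost this call in 7 of the 8 fits that left out 1 library each, SEL1L in 6 and MANF in 2. Groups of 2 libraries are too small for a test of outlying samples.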

How the results depend on the processing

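When a log2 fold change of 1 or more in size was required, 7 members were called in C4-2B, 2 in NCI-H660, 3 in the interaction and 11 between the control lines. On log2(TPM + 1) or log2(TPM + 0.1), 11 were called in C4-2B, and without the TPM filter 6 in C4-2B and 0 in NCI-H660, where limma called 1 gene of all 29413 and 14 members had an unadjusted p under 0.05, and where edgeR called 12 and DESeq2 10. An alternative chosen after seeing the data, log2(TPM + 1) centred per library, gave 16 and 10, with 60.7% of all called C4-2B genes higher. Leaving out 1 library at a time, the calls were 12 to 26 in C4-2B, 8 to 12 in NCI-H660 and 5 to 15 in the interaction, with lone libraries assumed to vary like the other groups. The 2 log2 fold changes in NCI-H660 that reversed in such fits were uncalled ones, MANF (−0.187 to 0.00918) and SYVN1 (−0.189 to 0.0674, and 0.0024 without shMYCL replicate 1). Of 402 single values recomputed, 345 kept direction and call, 53 lost the call, 1 gained it (XBP1 in C4-2B, 0.531 without MYCL replicate 1) and 3 reversed, and the causes were not tested. The medians kept their direction in all alternatives run.

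The replicate block gave 21 calls in C4-2B, where CRELD2 was lost, 12 in NCI-H660 and 9 in the interaction. Same-numbered libraries shared only a number, as their deviations correlated by 0.0161 and 0.0266. At this depth CREB3L1 and DERL3 rest on few counts.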
